A study of Mus musculus with 7 samples.

Results

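Fatty acid uptake and carrier genes move long-chain fatty acids from circulating lipoproteins into cells. They are represented here by Lpl, Gpihbp1, Cd36, Slc27a1, Acsl1, Fabp4 and Fabp5, 7 of the 56691 genes in the count table, found there by gene name. They were compared between skin of mice lacking Tuft1 and skin of wild-type mice. The levels in these 2 groups were known when the genes were picked, so the difference between the groups is given as a description, without a test.

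Skin samples came from 3 Tuft1 knockout mice (KO, mice 2, 3 and 4), taken where the skin looked healthy, and healthy skin from 4 wild-type mice (WT, mice 5, 6, 7 and 8), with 1 library per mouse. Tuft1 encodes tuftelin 1, a protein that the study's title places at desmosomes, the junctions that hold keratinocytes together. The labels used here give no strain, age, sex or body site, and do not say how Tuft1 was disrupted. QuantSeq libraries sample the 3′ terminal part of polyadenylated transcripts, and their counts do not grow with transcript length.

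Lipoprotein lipase, the product of Lpl, splits the triglycerides of lipoproteins into fatty acids on the wall of capillaries, where it is held by the GPIHBP1 protein of endothelial cells. The membrane proteins CD36 and FATP1 (the product of Slc27a1) promote the entry of fatty acids, long-chain acyl-CoA synthetase 1 (Acsl1) traps them as acyl-CoA, and the fatty acid-binding proteins FABP4 and FABP5 carry them through the cytosol. In skin, FABP4 is known mainly from fat cells and endothelium, and FABP5 mainly from keratinocytes and sebaceous glands.

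The libraries held 7009237 to 9256459 counts. Tuft1 itself was at 19.9, 29.1 and 17.2 CPM in KO mice 2, 3 and 4, against 106, 104, 55.6 and 114 CPM in WT mice 5, 6, 7 and 8. CPM is the count relative to the library's total, scaled between libraries with TMM factors. KO mouse 2 stood apart in hair genes, with counts in 45 of 58 keratin-associated protein genes, against 2 to 4 of these genes in each of the other libraries. Across the genome 3 of 12888 genes tested passed an adjusted p of 0.05 in the quasi-likelihood F test of edgeR (0.0233%), of which 2 (0.0155%) were higher and 1 (0.00776%) was lower in KO skin. None of the 3 was a fatty acid uptake or carrier gene. Fabp4, Cd36 and Lpl did pass with DESeq2's Wald test, with limma-voom and with edgeR without a filter on low counts. These genes were picked from this contrast, so such calls support nothing.

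Start-site windows of 300 bases (250 before and 50 after an annotated start) were at hand for 3 of the 7 genes, from RefSeq on GRCm38.p6. Those of Cd36 and Acsl1 are shown because both genes had every KO library below every WT library. The capitals mark the match to AGGTCA, the core of the sites that PPAR-gamma and its partner RXR bind, on either strand.
Cd36, chr5:17835847-17836146, minus strand: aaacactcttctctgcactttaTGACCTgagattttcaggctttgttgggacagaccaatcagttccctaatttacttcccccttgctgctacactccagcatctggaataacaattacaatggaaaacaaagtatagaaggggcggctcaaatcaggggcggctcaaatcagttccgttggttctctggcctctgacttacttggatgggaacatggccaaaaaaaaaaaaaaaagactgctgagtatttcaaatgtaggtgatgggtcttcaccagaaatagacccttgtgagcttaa
Acsl1, chr8:46470787-46471086, plus strand: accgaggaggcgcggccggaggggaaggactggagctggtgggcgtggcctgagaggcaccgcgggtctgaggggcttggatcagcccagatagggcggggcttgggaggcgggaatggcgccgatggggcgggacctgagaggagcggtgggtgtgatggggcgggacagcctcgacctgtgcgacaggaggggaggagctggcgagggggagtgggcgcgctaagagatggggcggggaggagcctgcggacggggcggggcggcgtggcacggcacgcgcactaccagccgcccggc
Acsl1, chr8:46490716-46491015, plus strand: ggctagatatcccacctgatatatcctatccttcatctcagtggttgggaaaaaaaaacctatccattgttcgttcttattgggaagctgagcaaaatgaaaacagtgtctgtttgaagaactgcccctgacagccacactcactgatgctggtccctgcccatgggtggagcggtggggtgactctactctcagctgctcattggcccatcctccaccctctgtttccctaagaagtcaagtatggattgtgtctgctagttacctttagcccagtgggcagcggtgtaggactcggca

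The Cd36 window held 1 match to AGGTCA, on the minus strand of the window and 228 bases before the start. Of the 32851 such windows counted, which left out 1 chromosome, 16.3% held the motif on either strand. Shares of all windows below refer to the same 32851. The upstream Acsl1 window held 30 CpG dinucleotides, and the downstream one 4. Neither Acsl1 window nor the 3 windows of Slc27a1 held AGGTCA. None of the 6 windows of these genes held the DR1 element (AGGTCA repeated after 1 free base), which 0.0396% of all windows held, TTGCNNAA, the core of C/EBP sites (10.8%), or TATAAA, the TATA box (13.6%). The third Slc27a1 window held CACGTG, the E-box, 202 bases before the start, as did 7.15% of all windows at any place. GENCODE lists 6 Cd36 transcripts on the same build, with starts between 17835696 and 17888801 and none inside the Cd36 window. The second and the third Slc27a1 window also held none of the 9 starts listed for that gene. Counts from 3′ ends do not tell which start was used.

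In KO skin the 7 genes together took 0.326%, 0.294% and 0.233% of all counts in mice 2, 3 and 4, against 0.604%, 0.952%, 0.520% and 0.8003% in WT mice 5, 6, 7 and 8. The highest KO library was thus below the lowest WT library. The summed level was 2815 ± 602 CPM in KO skin (SD, n = 3) and 7311 ± 1778 CPM in WT skin (SD, n = 4), and Lpl and Fabp4 made up 79.7% to 83.9% of it in KO and 86.7% to 89.8% in WT libraries. By gene, 6 of 7 had a log2 fold change below 0 (KO over WT), with a median of -1.28, against -0.01 over all genes tested, of which 50.5% lay below 0. That median is the value of Slc27a1, and Gpihbp1, among the 6, was at -0.11 (SE 0.85). In 4 of 7 genes (Lpl, Cd36, Acsl1 and Fabp4) every KO library was below every WT library, and 3.45% of all genes tested showed that order. In 0 of 7 was every KO library above every WT library, an order shown by 3.44% of all genes. A log2 fold change of -1 or lower was found in 4 of 7 genes and in 11.7% of all genes. The genes were chosen from this same contrast, so these shares support nothing.

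**Figure D1:**
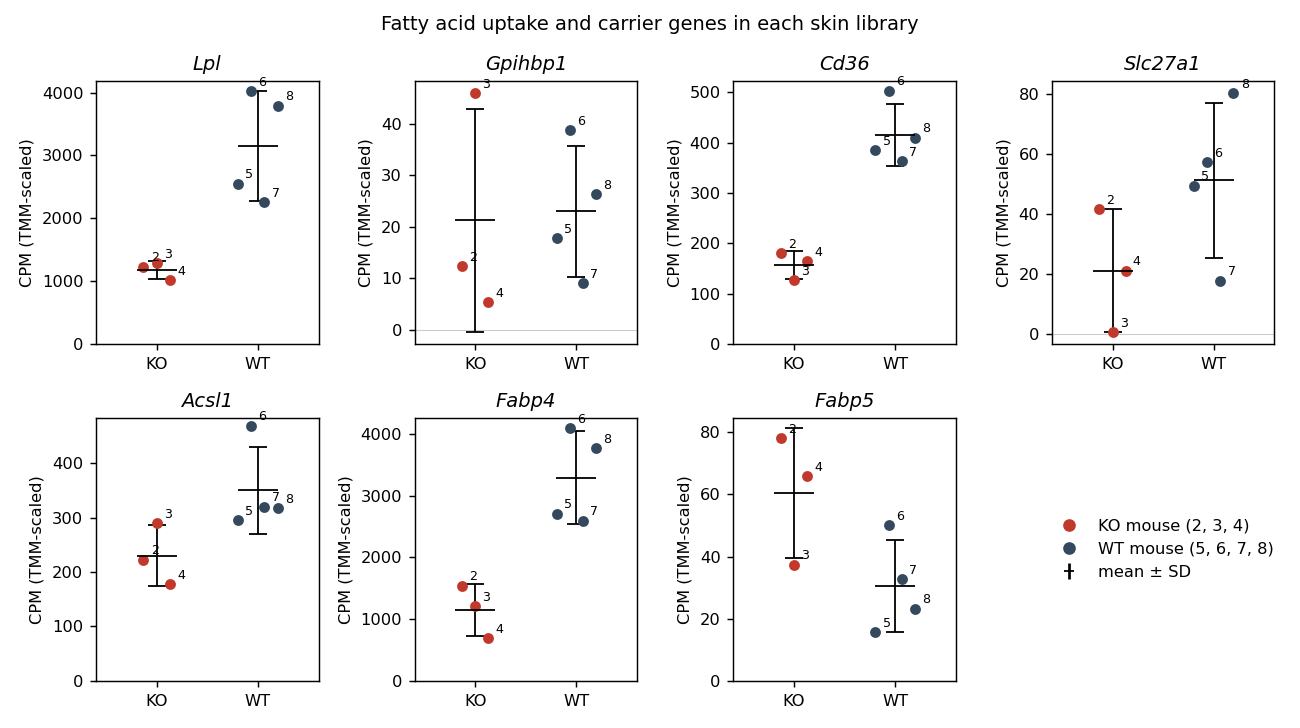
Level of each gene in CPM (y axis, linear, 0 included) in KO mice (red, left) and WT mice (dark, right), with mouse numbers, means and SD. Lpl, Cd36, Acsl1 and Fabp4 show no overlap between the groups, while Gpihbp1, Slc27a1 and Fabp5 overlap, and Fabp5 alone has a higher mean in KO skin.

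Hydrolysis of triglycerides and its anchor in capillaries come first in the pathway. Lpl (ENSMUSG00000015568.17, chromosome 8, 69333143 to 69360100, mm39) was at 1235, 1287 and 1016 CPM in KO mice 2, 3 and 4, against 2551, 4017, 2259 and 3789 CPM in WT mice 5, 6, 7 and 8. The KO values lay close together and the WT values fell into a lower pair (mice 5 and 7) and a higher pair (mice 6 and 8), all above the KO values. Its log2 fold change was -1.42 (SE 0.24). Gpihbp1 (ENSMUSG00000022579.11, chromosome 15, 75468477 to 75471330) was at 12.3, 46.0 and 5.39 CPM in KO mice 2, 3 and 4, against 17.8, 38.8, 9.08 and 26.4 CPM in WT mice 5, 6, 7 and 8. The groups overlapped fully: KO mouse 3 was the highest of all libraries and KO mouse 4 the lowest. The log2 fold change was -0.11 (SE 0.85), and it was -1.38 without KO mouse 3, 0.34 without KO mouse 4, 0.16 without KO mouse 2 and 0.25 without WT mouse 6. Gpihbp1 rested on 41 to 411 counts in a library.

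At the cell membrane, Cd36 (ENSMUSG00000002944.16, chromosome 5, 17986688 to 18093799) was at 180, 127 and 164 CPM in KO mice 2, 3 and 4. In WT mice 5, 6, 7 and 8 it was at 385, 503, 363 and 410 CPM. The highest KO value was far below the lowest WT value, and the spread within each group was small, with a coefficient of variation of 17.2% in KO and 14.9% in WT skin. The log2 fold change was -1.40 (SE 0.23). Slc27a1 (ENSMUSG00000031808.8, chromosome 8, 72021526 to 72039946) was at 41.5, 0.560 and 21.0 CPM in KO mice, against 49.4, 57.3, 17.8 and 80.4 CPM in WT mice. KO mouse 3 held 5 counts of Slc27a1 and the next lowest library, WT mouse 7, held 145, below KO mice 2 and 4 in CPM. The log2 fold change of -1.28 (SE 0.92) depended on several single libraries. It was -0.71 without KO mouse 3, -0.98 without WT mouse 8 and -2.25 without KO mouse 2.

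Inside the cell, Acsl1 (ENSMUSG00000018796.14, chromosome 8, 46924074 to 46989088) was at 222, 289 and 178 CPM in KO mice 2, 3 and 4, against 295, 469, 320 and 317 CPM in WT mice 5, 6, 7 and 8. The groups were separated by a narrow gap, between KO mouse 3 and WT mouse 5. The log2 fold change, -0.61 (SE 0.25), was the smallest in size among the 4 genes without overlap. Fabp4 (ENSMUSG00000062515.4, chromosome 3, 10269148 to 10273636) was at 1539, 1205 and 693 CPM in KO mice, against 2702, 4089, 2594 and 3764 CPM in WT mice. Its WT values fell into the same lower and higher pairs as those of Lpl, and KO mouse 4 was the lowest library. Its log2 fold change was -1.52 (SE 0.28), the lowest of the 7.

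Fabp5 (ENSMUSG00000027533.11, chromosome 3, 10077608 to 10081667) lies 187 kb from Fabp4 and had the opposite sign. It was at 78.0, 37.3 and 65.9 CPM in KO mice 2, 3 and 4, against 15.6, 49.97, 32.8 and 23.3 CPM in WT mice 5, 6, 7 and 8. KO mice 2 and 4 were above every WT mouse, and KO mouse 3 was inside the WT range. The log2 fold change was 0.99 (SE 0.49). Fabp5 amounted to 5.07%, 3.10% and 9.50% of the Fabp4 level in the KO libraries, against 0.578%, 1.22%, 1.26% and 0.618% in the WT libraries. Between them on the chromosome, Pmp2 and Fabp9, which encode other members of the binding protein family, had 0 counts in all 7 libraries, and Fabp12 on the far side of Fabp4 had 202 in all.

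Reads of a gene cannot be assigned with confidence where other transcripts hold the same sequence. In the last 500 bases of their GENCODE transcripts, Lpl, Gpihbp1, Cd36 and Fabp4 had no stretch of 100 bases or more at 95% identity or more with another gene. Fabp5 had 2 such copies with 1 count in all, against 2481 of its own, and Acsl1 had 1 with 0 counts. For Slc27a1, 3 of 9 transcripts ended in a stretch found in 42 other genes, so its counts are the least certain of the 7. No exon of another gene with counts overlapped an exon of the 7 genes.

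In WT skin the order of mean levels was Fabp4 (3287 ± 751 CPM), Lpl (3154 ± 878 CPM), Cd36 (415 ± 61.7 CPM), Acsl1 (350 ± 79.7 CPM), Slc27a1 (51.2 ± 25.9 CPM), Fabp5 (30.4 ± 14.8 CPM) and Gpihbp1 (23.0 ± 12.7 CPM; SD, n = 4 for each). These are levels of 3′ end counts, not divided by length. Neighbours overlapped in their ranges over mice, except that Cd36 stayed below Lpl and Slc27a1 below Acsl1. Fabp4 and Lpl ranked 28 and 30 by mean level over all 7 libraries among the 12888 genes tested. In KO skin the means were 1179 ± 143 CPM for Lpl, 1146 ± 426 CPM for Fabp4, 230 ± 56.1 CPM for Acsl1 and 157 ± 27.0 CPM for Cd36. They were 60.4 ± 20.9 CPM for Fabp5, 21.2 ± 21.7 CPM for Gpihbp1 and 21.1 ± 20.5 CPM for Slc27a1 (SD, n = 3 for each).

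Other genes of fatty acid handling were taken from 6 lists of 72 genes, of which 53 had enough counts to be tested. None of the 53 was called over all genes by edgeR. At an unadjusted p below 0.05 there were 6 lower and 2 higher, and the same threshold took 4.31% of all genes in either direction. The median log2 fold change over the 53 genes was -0.08, with 29 below 0. DESeq2's Wald test called 5 of them (Dbi, Slc27a4, Cav1, Cav2 and Apoe), limma-voom called Dbi and Apoe, and edgeR with no filter on low counts called Dbi and Slc27a4. These settings called 125, 22 and 76 genes in all.

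Among 9 tested genes of the lipoprotein lipase system the median was -0.13 (-0.37 to -0.08 with 1 mouse left out). Apoe, which encodes a lipoprotein component that receptors bind, was at 5139, 4932 and 4791 CPM in KO mice 2, 3 and 4, against 3199, 3054, 2751 and 2886 CPM in WT mice 5, 6, 7 and 8. Every KO library was above every WT library (log2 fold change 0.74, SE 0.17, edgeR adjusted p = 0.386). Apoc1, which encodes another apolipoprotein, was at 186 ± 86.45 CPM in KO and 179.6 ± 28.7 CPM in WT skin, and its groups overlapped. Apoc2, which encodes the activator of lipoprotein lipase, had 0 counts in all libraries.

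Among 12 tested genes of membrane uptake the median was -0.29 (-0.47 to -0.12 with 1 mouse left out). Cav1 and Cav2, which encode the caveolins of membrane pits that are abundant in fat cells and endothelium, were at 183 ± 30.7 and 115 ± 26.9 CPM in KO skin, against 334 ± 72.0 and 223 ± 18.0 CPM in WT skin. Neither pair of groups overlapped (log2 fold changes -0.87, SE 0.24, and -0.96, SE 0.24, with edgeR adjusted p = 0.667 and 0.511). Cavin1, which encodes another caveola protein, was at 1129 ± 46.6 CPM in KO and 1231 ± 83.4 CPM in WT skin. Slc27a4, which encodes FATP4, the transporter needed for the skin barrier in mice, had the opposite sign to Slc27a1. It was at 121, 94.1 and 266 CPM in KO mice 2, 3 and 4, against 54.0, 50.2, 46.0 and 35.8 CPM in WT mice 5, 6, 7 and 8 (log2 fold change 1.79, SE 0.36, edgeR adjusted p = 0.254). All KO values were above all WT values, and Slc27a1 made up 0.592% to 25.5% of the sum of both transporters in KO libraries, against 27.9% to 69.2% in WT libraries.

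The carrier list had 5 tested genes, with a median of -0.20 that ran from -0.79 without WT mouse 6 to 0.69 without WT mouse 7. The expression filter was run anew for each omission, and without WT mouse 6 only 3 carrier genes were tested. The change in that median is thus partly a change in the genes. Dbi, which encodes the acyl-CoA-binding protein, was at 505, 468 and 578 CPM in KO mice, against 1083, 1343, 667 and 1059 CPM in WT mice, with no overlap (log2 fold change -1.01, SE 0.24, edgeR adjusted p = 0.489). Scp2, a sterol carrier, was at 18.4 ± 6.81 CPM in KO and 21.2 ± 21.4 CPM in WT skin. Fabp3, the heart and muscle form of the binding proteins, was at 3.16 ± 5.00 and 4.08 ± 5.05 CPM, and its exons overlap those of Zcchc17, so its few counts are uncertain. Fabp12 was at 5.40 ± 4.96 CPM in KO and 1.86 ± 3.71 CPM in WT skin.

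The other acyl-CoA synthetases (9 tested, median 0.12) included none at an unadjusted p below 0.05. The median was -0.02 without WT mouse 6 and -0.0067 without KO mouse 3. Acsbg1 was at 311 ± 60.2 CPM in KO and 306 ± 50.4 CPM in WT skin, Acsl5 at 262 ± 48.05 and 241 ± 26.0 CPM, and Acsl4 at 70.9 ± 39.9 and 50.2 ± 9.17 CPM. Their groups overlapped, whereas those of Acsl1 did not. That difference between Acsl1 and its relatives was not tested.

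Among 10 tested transcription factors and cofactors (median -0.14), 2 had every KO library below every WT library, an order shown by 3.45% of all genes. The median was 0.03 without KO mouse 2. Pparg, which encodes the nuclear receptor that drives fat cell genes including Fabp4, Lpl and Cd36, was at 36.4, 45.9 and 26.2 CPM in KO mice, against 88.1, 93.0, 84.4 and 60.6 CPM in WT mice (log2 fold change -1.17, SE 0.35, edgeR adjusted p = 0.793). Cebpa, a second regulator of fat cell formation, was at 107 ± 8.38 CPM in KO and 166 ± 12.2 CPM in WT skin (log2 fold change -0.63, SE 0.23, edgeR adjusted p = 0.99973). Rxra, the partner of PPAR receptors, was at 129 ± 42.3 and 149 ± 26.0 CPM, and Cebpb at 109 ± 48.9 and 111 ± 28.65 CPM. The 8 tested genes of mitochondrial entry and oxidation had a median of -0.0045 (-0.20 to 0.12 with 1 mouse left out) and none at an unadjusted p below 0.05. Among them were Acadl and Acadm, which encode acyl-CoA dehydrogenases, at 258 ± 18.1 and 94.1 ± 17.3 CPM in KO skin, against 227 ± 28.3 and 106 ± 27.3 CPM in WT skin.

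**Figure D2:**
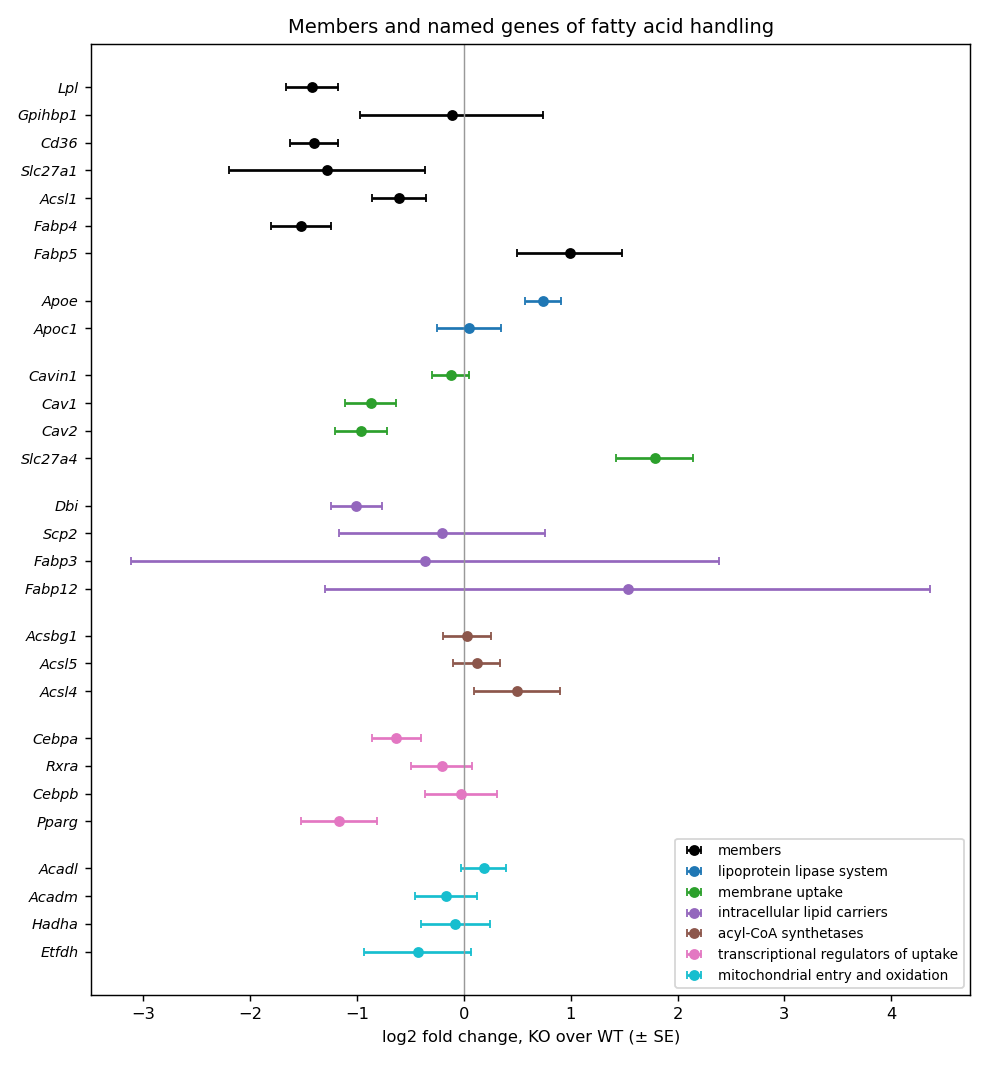
Log2 fold change, KO over WT (x axis, points with SE), for the 7 uptake and carrier genes (black) and genes named from 6 other lists (colours). Lpl, Cd36, Slc27a1, Fabp4, Cav1, Cav2, Dbi and Pparg lie near or below -0.87. Slc27a4, Fabp12, Fabp5 and Apoe lie at 0.74 or above, and the synthetases other than Acsl1 and the oxidation genes within 0.50 of 0. The bars of Fabp3 and Fabp12, which have few counts, are the widest.

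Fat cell markers moved with the uptake genes. Of 11 markers, all tested and none at 0 in any library, 11 had a log2 fold change below 0 (median -1.08), and none was called over all genes by edgeR, with 8 lower at an unadjusted p below 0.05, which 4.31% of all genes passed in either direction. Their summed level was 6731 to 8272 CPM in KO libraries, against 10594 to 16394 CPM in WT libraries. Adipoq, which encodes the hormone adiponectin, was at 300.4 ± 53.8 CPM in KO and 833 ± 194 CPM in WT skin, Plin1, which coats lipid droplets, at 113 ± 41.5 and 326 ± 86.1 CPM, and Plin4 at 138.5 ± 44.4 and 205 ± 122 CPM. In bulk skin, fewer fat cells and less of these transcripts per fat cell cannot be told apart.

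Set against the summed fat cell markers of the same library, the genes differed from one another. Most of that sum, 13499 CPM on average in WT skin, came from markers other than Adipoq, Plin1 and Plin4. Lpl stood at 17.4%, 15.6% and 15.1% of that sum in KO mice 2, 3 and 4, against 19.8%, 28.4%, 21.3% and 23.1% in WT mice 5, 6, 7 and 8, still without overlap. Fabp4 stood at 21.7%, 14.6% and 10.3% in KO mice, against 21.0%, 29.0%, 24.5% and 23.0% in WT mice, with KO mouse 2 inside the WT range. Cd36 was at 2.17 ± 0.55% in KO and 3.12 ± 0.48% in WT skin, and Acsl1 at 3.09 ± 0.43% and 2.64 ± 0.64%, both with overlap. Fabp5 was at 0.84 ± 0.34% in KO and 0.23 ± 0.12% in WT skin, without overlap, although its CPM overlapped. The marker sum itself was lower in KO libraries. Gpihbp1 was at 0.27 ± 0.25% and 0.16 ± 0.08%, and Slc27a1 at 0.30 ± 0.29% and 0.36 ± 0.14%, with overlap. Expressed as a log2 ratio of the KO over the WT mean, these shares gave -0.53 for Lpl, -0.65 for Fabp4 and -0.52 for Cd36. With Adipoq alone as the denominator they were 0.06, -0.10 and 0.05, and with Plin1 alone 0.18, -0.03 and 0.14. These ratios thus depended on the denominator. Adipoq and Plin1, the only markers tried alone, had log2 fold changes of -1.47 and -1.53, below the median of -1.08 over the 11 markers. Less lowered markers, such as Plin4 at -0.57, were not tried.

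**Figure D3:**
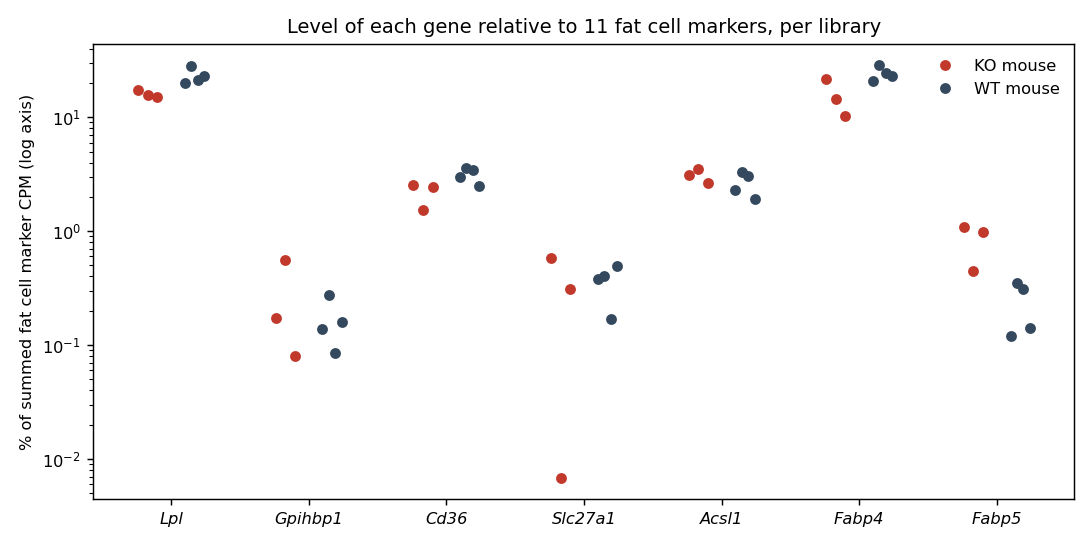
Level of each gene as a percentage of the summed CPM of 11 fat cell markers in the same library (y axis, log scale) for KO mice (red, left of each pair) and WT mice (dark, right). Lpl and Fabp5 are separated, in opposite directions, and the other 5 genes overlap, with Slc27a1 in KO mouse 3 far below the rest. In CPM, Fabp5 overlapped between the groups, and the marker sum was lower in every KO library than in every WT library.

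Markers of other cells in skin were summed in the same way, with ranges that were apart for keratinocytes and sebaceous glands and overlapped for endothelium and skeletal muscle. Of 12 endothelial markers 10 had a log2 fold change below 0 (median -0.62, and -0.20 without WT mouse 5). Their summed level was 275 to 340 CPM in KO and 299 to 490 CPM in WT libraries, and Tek and Cldn5 had 0 counts in every KO library. Cldn5 also had none in WT mouse 7, and Vwf lay above the WT mean log2 CPM in every KO library. Pecam1, an adhesion molecule of endothelium, was at 30.9 ± 11.9 CPM in KO and 64.7 ± 16.3 CPM in WT skin, Cdh5, the endothelial cadherin, at 31.9 ± 12.3 and 31.6 ± 9.75 CPM, and Kdr, a receptor of VEGF, at 22.6 ± 4.77 and 42.8 ± 30.1 CPM. Of 12 keratinocyte markers 8 lay below 0 (median -0.22, and -0.12 without KO mouse 3), with sums of 21537 to 22799 CPM in KO and 23314 to 28171 CPM in WT libraries. Of 7 tested sebaceous gland markers 6 lay above 0 (median 0.77, and 0.45 without WT mouse 6), with sums of 643 to 873 CPM in KO and 436 to 590 CPM in WT libraries. Of 11 tested skeletal muscle markers 11 lay above 0 (median 0.36, and 0.22 without KO mouse 2), with sums of 18035 to 27717 CPM and 17566 to 23340 CPM.

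Of 8 macrophage markers 8 lay above 0 (median 0.31, sums of 473 to 1181 CPM in KO and 407 to 732 CPM in WT libraries), as did 6 of 6 fibroblast markers (median 0.46, 11183 to 29969 CPM and 10724 to 18277 CPM). Without KO mouse 2 these medians were -0.24 and -0.09. Below 0 lay 4 of 4 tested erythrocyte markers (median -0.95, and -0.56 without KO mouse 3). Their sums were 250.1 to 758 CPM in KO and 456 to 1451 CPM in WT libraries. All 10 of 10 immediate early genes also lay below 0 (median -1.64), as did 50.5% of all genes. Of these 10, 9 were lower at an unadjusted p below 0.05, which 4.31% of all genes passed in either direction. In 3 of the 10 every KO library was below every WT library, an order shown by 3.45% of all genes. The immediate early sums were 1259 to 1405 CPM in KO libraries, and 5545, 2755, 4691 and 1538 CPM in WT mice 5, 6, 7 and 8. No gene of these lists was called over all genes by edgeR. Their part in the levels of the uptake and carrier genes was not tested.

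**Figure D4:**
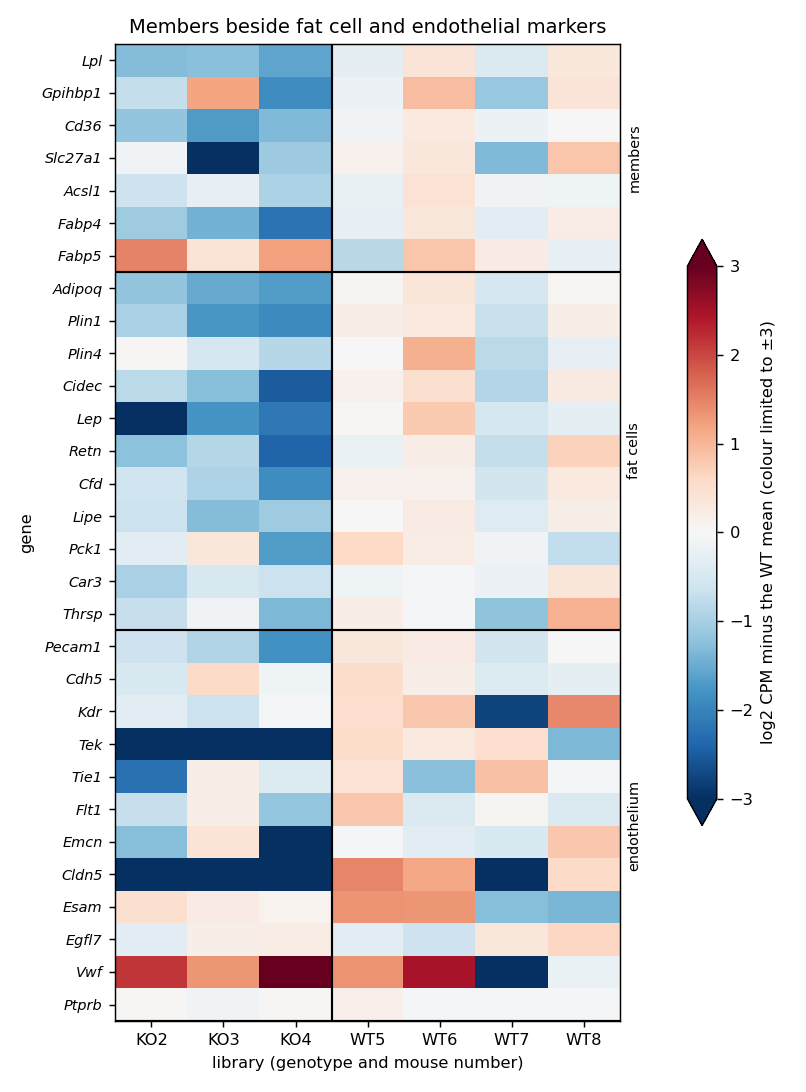
Log2 CPM minus the WT mean (colour, limited to ±3) of the 7 genes, 11 fat cell markers and 12 endothelial markers (rows) in each library (columns, KO left of the line and WT right of it). Lpl, Cd36 and Fabp4 share the blue of most fat cell markers in KO libraries, Fabp5 is red there, and WT mouse 7 is paler or blue in fat cell markers.

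Over the 7 libraries, the pattern of Lpl was most like that of Dgat2 among 8872 genes with a mean of at least 10 CPM (Pearson's r of log2 CPM 0.97, Spearman's rho 0.96). Dgat2, which makes triglycerides, was at 380 ± 73.2 CPM in KO and 1063 ± 240 CPM in WT skin. Next came Adipoq (r 0.97, rho 0.93), Tuft1 (r 0.96, rho 0.89), Sptbn1, a spectrin of the cell cortex (r 0.96, rho 0.96), and Snx6, a sorting nexin (r 0.95, rho 0.89). Without the 2 libraries farthest from the median of Lpl, KO mice 4 and 2, these r were 0.92 to 0.98. Among the 7 genes themselves, r with Lpl was 0.96 for Fabp4, 0.94 for Cd36, 0.86 for Acsl1, 0.55 for Slc27a1, 0.49 for Gpihbp1 and -0.56 for Fabp5. Each of these values holds the difference between the groups as well as that between mice of a group, so it is a description of 7 libraries only.

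The mean standardized profile of the 7 genes was most like those of H2-Q4 (r 0.97), an MHC class I gene, Lrg1 (r 0.96), Snx6 (r 0.96), Tuba1a (r 0.95), an alpha tubulin, and Gsto1 (r 0.95), a glutathione transferase. H2-Q4 and Tuba1a belong to families of closely similar genes, and their counts are uncertain. WT mouse 6 was the highest library in 4 of these 5 genes, as it was for Lpl, Cd36, Acsl1 and Fabp4.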

How the data were processed

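The authors deposited raw counts per gene as whole numbers. Their build was mm39, and edgeR 3.36.0, Subread 2.0.3 with featureCounts, GATK 4.2.4.0 and STAR are listed, without their roles, per the submitters' processing notes. Strand use and handling of duplicates are not given in the sources used here. The authors also deposited log2 values for 12954 genes. All 90678 were recovered as edgeR log2 CPM within 1e-09, and the table was not used further.

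Libraries held 7009237 to 9256459 counts, and the 7 genes 5 to 36326 counts per library. Counts of 12888 genes passing edgeR's expression filter (minimum 10) were scaled with TMM factors and compared by the quasi-likelihood F test (edgeR 4.0.16, R 4.3.3), with Benjamini-Hochberg adjustment over all genes and a threshold of 0.05. Standard errors come from the F statistic. Reads carry no molecular tags, and counting error is only part of the spread. The procedure was checked on simulated data. Alternatives were DESeq2 1.42.0, limma-voom (limma 3.58.1), other factors, filters and omission of each mouse. The expression filter was run anew for each omission, so the tested genes of a list could change.

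Genes and lists were chosen with earlier results of these data known. Named were the 7 genes, Tuft1, of each pathway list the 3 with the highest level and the 2 with the smallest p, 3 markers per list, and the 5 genes most alike in pattern. Not every gene so allowed is printed, and 1 is not reported here. Apoc2, Pmp2, Fabp9, Tek and Cldn5 were named after their values were seen.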

Additional observations from a re-analysis of the deposited data

Results flagged for a closer look

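Sets of 4 WT values were examined for 1 mouse far from the other 3, over 79 genes and summed levels, and 8 were found, where chance gives about 1 in 20 (3.95). None of the 8 was among Lpl, Gpihbp1, Cd36, Slc27a1, Acsl1, Fabp4 and Fabp5. The measure is the gap to the nearest mouse divided by the whole range, set against Dixon's critical value for 4 samples. WT mouse 7 was low for Tuft1 (gap 0.869, log2 CPM 5.80 against 6.70 to 6.84) and Plin1 (gap 0.869, 7.63 against 8.47 to 8.60), and high for the summed acyl-CoA synthetases (gap 0.869). WT mouse 6 was high for Fabp12 (gap 1.0, the other 3 mice having no counts) and Tuba1a (gap 0.84, 8.10 against 6.62 to 6.86). WT mouse 8 was high for Ckm (gap 0.867), for the summed skeletal muscle markers (gap 0.858) and for Adgre1 (gap 0.832). Groups of 3 KO mice were not examined with this measure.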

How the results depend on the processing

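No paired analysis was possible because the mouse numbers of the groups are not shared. The median log2 fold change of the 7 genes was -1.28, and -1.46 to -0.98 over 13 alternatives. The sign of Lpl, Cd36, Slc27a1, Acsl1, Fabp4 and Fabp5 was the same in all 13, and that of Gpihbp1 was above 0 without KO mouse 2 or 4 or WT mouse 6. Slc27a1 was at -2.71 in limma-voom. Genes called numbered 3, against 76 with no filter on low counts, 125 with DESeq2's Wald test and 22 with limma-voom, and 0 to 1 with 1 mouse left out. Other fatty acid handling genes called numbered 0, against 2 (no filter), 5 (DESeq2) and 2 (limma-voom), and 0 with any mouse left out. The cause was not tested. Relative to fat cell markers, the median log2 ratio of the 7 genes was -0.26, against 0.16 with Adipoq alone and 0.19 with Plin1 alone as the denominator, and -0.60 to -0.08 with 1 mouse left out. For the macrophage, fibroblast and carrier lists and those of the synthetases, regulators and oxidation genes, the sign of the median depended on 1 mouse (for oxidation genes also on the size factors and the filter), and that of the carrier list was also above 0 in limma-voom (0.64). Gpihbp1, Slc27a1 and Fabp5 have few counts (1344, 2249 and 2481 over all libraries).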
